A study of Mus musculus with 6 samples.

Results

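The oxygen-sensing and hypoxia-inducible factor (HIF) genes of NIH3T3, an established mouse fibroblast line of embryonic origin, were examined as a set of 9 among the 35275 genes of the count table. The set was chosen by gene name and role: the prolyl hydroxylases Egln1, Egln2 and Egln3, the asparaginyl hydroxylase Hif1an, the ubiquitin ligase receptor Vhl, the alpha subunits Hif1a and Epas1, and the beta subunits Arnt and Arnt2. It was selected on earlier results of these libraries, in which Egln1 was higher in the overexpressing line, so that the differences between the groups are given here as description and not as tests of single members. All 9 names matched 1 row each, and 8 of the 9 passed the filter on low counts. Epas1 did not.

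The study compared 3 libraries of wild-type cells with 3 libraries labelled NgBR overexpression, the Nogo-B receptor encoded by Nus1. Per the labels' protocols, the second line was stably transfected with a plasmid for HA-tagged NgBR and selected with G418, and both lines grew in the same serum-containing medium. The labels name no vector-only or G418-selected control and do not say whether the line was a single clone, so that NgBR, selection and clonal origin cannot be told apart. Oxygen tension and cell density at harvest are not stated in the labels. Whether the 3 libraries per line came from separate cultures is not stated either, so that the spread between them may be technical.

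HIF is a pair of basic helix-loop-helix PAS proteins, an oxygen-labile alpha subunit and a stable beta subunit. In the presence of oxygen, EGLN enzymes hydroxylate prolines of the alpha subunit, VHL then binds it, and the subunit is degraded, while HIF1AN hydroxylates an asparagine and blocks contact with the coactivators EP300 and CREBBP. At low oxygen the alpha subunit escapes both marks and activates genes of glycolysis, angiogenesis and mitophagy. Among these targets are Egln1 and Egln3 themselves, a known feedback loop. Much of this control acts on protein, which RNA levels do not show.

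Wild-type libraries held 29515072 to 35511769 counts and the labelled libraries 7369961 to 10358381, so depth ran with the groups. On the second principal component, with 34.2% of the variance, library 2 was the lowest of each group, at -17 against 21.8 and 27 in wild type and at -49 against -6.1 and 23.4 in the labelled libraries. Exonic length and a gene's deviation from its 6-library mean had Spearman correlations of -0.212, 0.259 and -0.293 in wild-type libraries 1, 2 and 3 and of 0.081, 0.368 and -0.48 in labelled libraries 1, 2 and 3, across genes, which are not independent replicates. CPM is the count per 1000000 counts of the library, its size scaled by a TMM factor. Nus1 itself was at 187 to 233 CPM in wild type and at 165 to 185 CPM in the labelled libraries, which edgeR fitted as -0.24 on the log2 scale (SE 0.21, adjusted p = 0.786). Counts at the mouse gene were thus not higher under the label, and the species of the transgene is not in the labels. All 10 fibroblast markers, such as Col1a1, Pdgfra and Thy1, were tested and 0 were called (0 at an unadjusted p under 0.05 by edgeR, 0 by DESeq2), at summed levels of 21170 to 25230 CPM in wild type and 21960 to 33180 CPM in the labelled libraries. edgeR called 3.39% of all genes tested. The CPM ranges of the groups were separate for Col1a1, higher in the labelled libraries, and for Pdgfra, lower there, and overlapped for the other 8. The 5 epithelial markers summed to at most 0.982 CPM in any library, with Epcam, Krt18 and Cldn4 at 0 counts in all of them. The 5 endothelial markers summed to at most 4.07 CPM, and the leukocyte markers to at most 3.76 CPM.

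The promoters of the 3 prolyl hydroxylase genes are shown first, since these paralogues share an enzymatic role and 2 of them are known HIF targets. The HIF core motif was searched as ACGTG or GCGTG on both strands in the 250 bases before the RefSeq start (GRCm38.p6). RefSeq's table held windows for 8 of the 9 members. All printed windows are on the minus strand and read 5′ to 3′ in the direction of the gene, with core matches in capitals. They lie at chr8:124949325-124949504 for Egln1, chr7:27166803-27167052 for Egln2 and chr12:54203875-54204124 for Egln3. The window of Egln1 is printed as far as the GENCODE start of the gene, which lies upstream of the RefSeq start.
Egln1: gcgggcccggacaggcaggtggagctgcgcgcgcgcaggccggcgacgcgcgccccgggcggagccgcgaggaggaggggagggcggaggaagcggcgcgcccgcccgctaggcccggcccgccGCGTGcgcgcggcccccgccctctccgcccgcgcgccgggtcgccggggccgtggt
Egln2: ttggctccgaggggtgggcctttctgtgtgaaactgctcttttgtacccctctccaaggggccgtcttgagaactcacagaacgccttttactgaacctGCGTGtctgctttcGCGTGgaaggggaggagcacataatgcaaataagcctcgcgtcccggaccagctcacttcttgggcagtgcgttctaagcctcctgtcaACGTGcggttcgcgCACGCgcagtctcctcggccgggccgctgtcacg
Egln3: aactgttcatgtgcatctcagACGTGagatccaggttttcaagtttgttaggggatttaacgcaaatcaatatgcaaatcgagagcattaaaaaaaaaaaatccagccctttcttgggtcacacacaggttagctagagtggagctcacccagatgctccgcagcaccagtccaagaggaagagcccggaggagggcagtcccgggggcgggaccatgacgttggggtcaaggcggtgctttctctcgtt

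The full window of Egln1 held 2 core matches, 1 of them beyond the printed part, that of Egln2 held 4, and that of Egln3 held 1. A second annotated start of Egln2 held 1. Hif1a had 3 matches, which include both strands of an E-box, CACGTG, whose letters contain ACGTG, and Arnt had 1. The window of Hif1a, chr12:73907617-73907866, lies inside the GENCODE span of the gene, downstream of its outermost start at 73901375. The windows of Arnt2, Hif1an and Vhl had 0. So 5 of 8 members had a match in at least 1 of their windows, 9 in all. Of all 32851 promoter windows of that length 38.6% had a match, a share per window and not per gene. The windows also differed in composition, with 51 CpG dinucleotides and 86.0% G and C for Egln1, and 10 and 50.8% for Egln3, beside a median of 6 and 52.4% over all windows. A match is a string of letters and not a site of binding, which was not measured.

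Of the 8 members tested, edgeR's quasi-likelihood test across 12651 genes called 2, Egln1 and Egln3, both higher in the labelled libraries. Over all genes it called 3.39%, 2.04% higher and 1.35% lower. Separate CPM ranges in the 2 groups were seen for Egln1, Egln3 and Vhl, where the labelled libraries were higher (9.21% of tested genes), and for Arnt2, where they were lower (9.37% of tested genes). The remaining 5 members overlapped. Because the set was put together with this contrast in view, nothing is read from these counts. In bulk RNA, fewer expressing cells and less RNA per cell cannot be told apart.

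**Figure D1:**
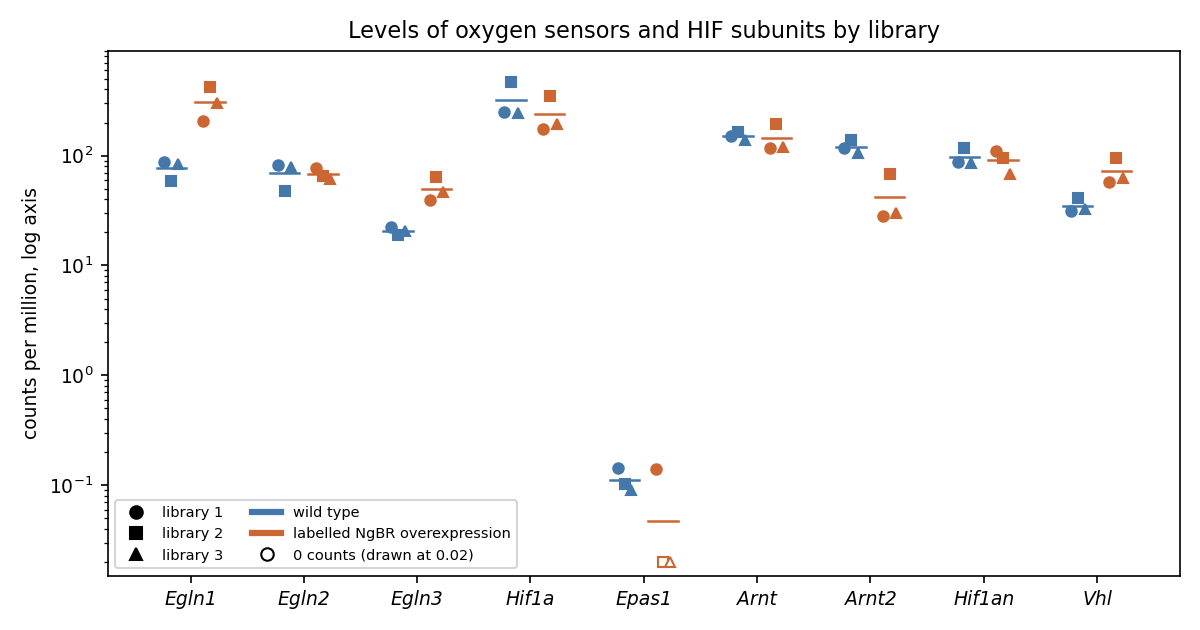
CPM of the 9 members in each library on a log axis, with horizontal bars at the group means of 3 libraries and open symbols for 0 counts. Egln1, Egln3 and Vhl lie higher in every labelled library than in any wild-type library, Arnt2 lies lower, and Epas1 is near the lower limit in both groups.

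Egln1 encodes PHD2, regarded as the main oxygen sensor that sets HIF1A turnover (ENSMUSG00000031987, mm10 chromosome 8, 124908587 to 124949324, minus strand). Wild-type libraries 1, 2 and 3 had 87.4, 58.8 and 83.4 CPM, and labelled libraries 1, 2 and 3 had 208, 417 and 299 CPM. The lowest labelled library was thus well above the highest wild-type library, and libraries 2 held the lowest value of the first group and the highest of the second. Mean levels of 76.5 ± 15.5 and 308 ± 105 CPM (SD, n = 3) stood 4.03-fold apart. The fitted log2 fold change was 2.01 (SE 0.31, 95% interval 1.31 to 2.71). Without both libraries numbered 2 it was 1.57, and it lay between 1.73 and 2.22 with single libraries left out.

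Egln3 encodes PHD3, the paralogue known for strong induction at low oxygen (ENSMUSG00000035105, chromosome 12, 54178981 to 54203860, minus strand). Wild-type libraries were at 22.5, 19.0 and 20.6 CPM and labelled libraries at 39.4, 64.1 and 46.8 CPM. The wild-type values lay close together, and each labelled value was above all of them. The means were 20.7 ± 1.75 and 50.1 ± 12.7 CPM (SD, n = 3), and the fitted log2 difference was 1.28 (SE 0.24, 95% interval 0.73 to 1.82), and of 1.0 without both libraries numbered 2. The call was lost in fits with 1 library fewer, at an edgeR adjusted p of 0.0743, 0.0646 and 0.0855 without wild-type libraries 1, 2 and 3, and of 0.0543 without labelled library 3. The log2 fold changes there were 1.35, 1.22, 1.27 and 1.33, close to that of all 6 libraries.

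Egln2 encodes PHD1, a further prolyl hydroxylase of the alpha subunits (ENSMUSG00000058709, chromosome 7, 27158658 to 27166802, minus strand). It was at 82.7, 47.4 and 79.1 CPM in wild type and at 77.0, 65.4 and 61.3 CPM in the labelled libraries. The groups overlapped, with wild-type library 2 the lowest of the 6. The log2 fold change was -0.04 (SE 0.26, 95% interval -0.62 to 0.54), and its sign turned without wild-type library 1 (0.12), wild-type library 3 (0.06) or labelled library 3 (0.03).

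Hif1an encodes FIH, the asparaginyl hydroxylase that limits coactivator binding (ENSMUSG00000036450, chromosome 19, 44562850 to 44576274, plus strand). Its levels were 87.3, 116 and 84.8 CPM in wild type and 110, 95.1 and 68.2 CPM in the labelled libraries, again overlapping. The log2 fold change was -0.08 (SE 0.25, 95% interval -0.64 to 0.49), with a positive sign without wild-type library 2 (0.08), without labelled library 3 (0.09) and without both libraries numbered 2 (0.05).

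Vhl encodes the subunit of an E3 ubiquitin ligase that recognises hydroxylated alpha subunits (ENSMUSG00000033933, chromosome 6, 113623959 to 113631633, plus strand). It was at 31.0, 40.9 and 32.5 CPM in wild type and at 57.3, 95.2 and 63.2 CPM in the labelled libraries. Library 2 was the highest of each group, and the groups did not overlap. The means of 34.8 ± 5.31 and 71.9 ± 20.4 CPM (SD, n = 3) differed by 1.05 on the log2 scale (SE 0.26, 95% interval 0.47 to 1.63), and by 0.92 without both libraries numbered 2. The main edgeR fit of all 6 libraries did not call Vhl (adjusted p = 0.0683). edgeR called it higher without both libraries numbered 2 (adjusted p = 0.027). With all 6 libraries, edgeR also called it without the low-count filter (adjusted p = 0.0378) and with the replicate number as a block (adjusted p = 0.0085). Of 15 alternative settings 4 called it and 11 did not.

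The alpha subunits were unequal. Hif1a (ENSMUSG00000021109, chromosome 12, 73901375 to 73947530, plus strand), which encodes the widely expressed alpha subunit, was at 251, 471 and 242 CPM in wild type and at 173, 345 and 194 CPM in the labelled libraries. Within each group library 2 was the highest, and labelled library 2 exceeded wild-type libraries 1 and 3, so that the groups overlapped. The log2 fold change was -0.44 (SE 0.36, 95% interval -1.26 to 0.39), from -0.81 without labelled library 2 to -0.05 without wild-type library 2. The antisense gene Gm15283 overlaps 5.6% of the exonic bases of Hif1a, with 98 counts in wild type and 8 in the labelled libraries, few beside the 1234 to 13916 counts of Hif1a per library.

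Epas1 encodes HIF2A, the alpha subunit best known from endothelium, lung and kidney (ENSMUSG00000024140, chromosome 17, 86753700 to 86833410, plus strand). It had 5, 3 and 3 counts in wild-type libraries and 1, 0 and 0 in the labelled ones. The pooled wild-type to labelled ratio was 3.12 with an exact 95% interval of 0.453 to 134, which covers counting error only, so that no difference was detectable at this depth. Pooled levels were 0.113 and 0.0361 CPM, where 3 counts correspond to 0.0307 CPM over the wild-type group and to 0.108 CPM over the labelled group.

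Of the beta subunits, Arnt (ENSMUSG00000015522, chromosome 3, 95434388 to 95497240, plus strand), the general partner of HIF alpha subunits and of the aryl hydrocarbon receptor, was at 151, 164 and 140 CPM in wild type and at 117, 195 and 119 CPM in the labelled libraries. Labelled library 2 was the highest of the 6 and the other labelled libraries were the lowest. The log2 fold change was -0.08 (SE 0.26, 95% interval -0.66 to 0.50), and its sign turned without labelled library 1 (0.04) or labelled library 3 (0.04).

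Arnt2 encodes a beta subunit known mainly from the nervous system (ENSMUSG00000015709, chromosome 7, 84246278 to 84410176, minus strand). It was at 118, 138 and 105 CPM in wild type and at 28.3, 67.7 and 29.7 CPM in the labelled libraries. All labelled values were below all wild-type values, and labelled library 2 stood above the other labelled libraries. The means were 121 ± 16.9 and 41.9 ± 22.3 CPM (SD, n = 3), a 2.88-fold lower level, fitted as -1.52 on the log2 scale (SE 0.35, 95% interval -2.31 to -0.73). It was -1.94 without both libraries numbered 2 and -2.06 without labelled library 2 alone. The main edgeR fit of all 6 libraries did not call Arnt2 (adjusted p = 0.0519). edgeR called it lower without labelled library 2 (adjusted p = 0.00453) and without both libraries numbered 2 (adjusted p = 0.00212). With all 6 libraries, edgeR also called it without the low-count filter (adjusted p = 0.00137) and with the replicate number as a block (adjusted p = 0.000847). Of 15 alternative settings 7 called it and 8 did not. The antisense gene Gm30873 overlaps 2.8% of its exonic bases and was not in the count table.

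**Figure D2:**
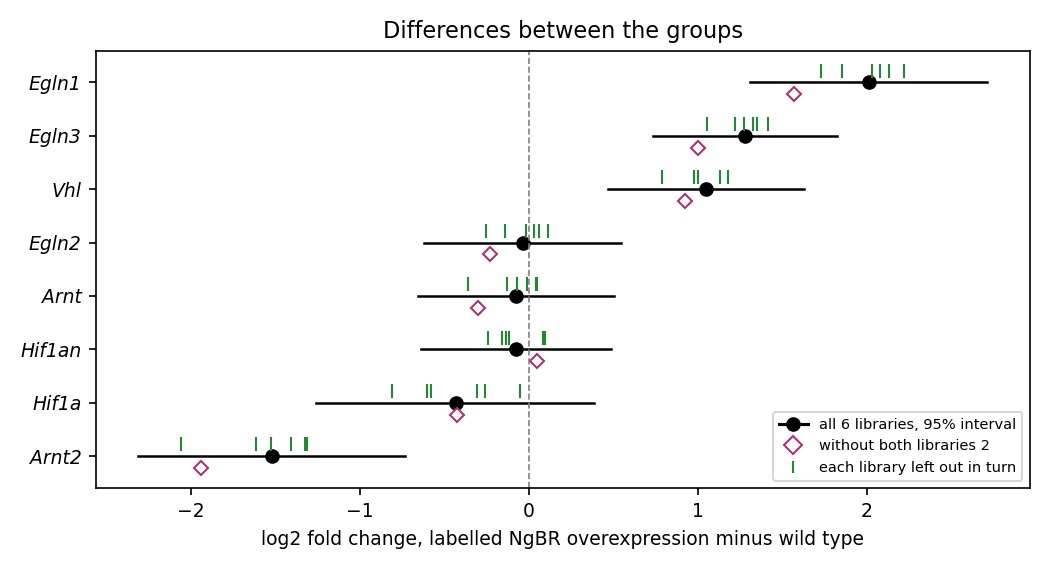
Log2 fold changes of the 8 tested members, labelled NgBR overexpression minus wild type. Circles with lines give the fit of all 6 libraries with its 95% interval, diamonds the fit without both libraries numbered 2, and ticks the fits with 1 library left out. The values run from -1.52 for Arnt2 to 2.01 for Egln1, and the intervals of Egln2, Arnt, Hif1an and Hif1a include 0.

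DESeq2 called 4 of the 8, adding Vhl as higher and Arnt2 as lower, and it called 5.68% of all genes. edgeR without both libraries numbered 2 called the same number of members, beside 4.53% of the genes tested there. The median log2 fold change of the 8 members was -0.06, and that of all tested genes -0.01.

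Levels of different genes were compared per kilobase of exon, as CPM divided by the exonic length in GENCODE. In wild type the order of mean levels was Hif1a at 54.5, Egln2 at 24.9, Egln1 at 21.3, Arnt at 18.9, Arnt2 at 15.7, Hif1an at 14.6, Vhl at 11.6, Egln3 at 7.77 and Epas1 at 0.020 CPM per kb. Of the 8 neighbouring pairs in this order 5 had overlapping library values, and the steps after Hif1a, after Vhl and after Egln3 were the separate ones. In the labelled libraries Egln1 came first at 85.8 CPM per kb, followed by Hif1a at 40.3, Egln2 at 24.3, Vhl at 24.0, Egln3 at 18.8, Arnt at 18.0, Hif1an at 13.8, Arnt2 at 5.45 and Epas1 at 0.00837. Again 5 of 8 neighbours overlapped, Egln1 and Hif1a among them, while Hif1a stood apart from Egln2, Hif1an from Arnt2 and Arnt2 from Epas1. With the longest transcript as length, Arnt moved to the second place in wild type, at 35.0 CPM per kb, and to the third in the labelled libraries, at 33.3.

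The make-up of the hydroxylase family differed between the lines. The set was chosen with the higher Egln1 known, so the shares and the sum below restate that difference and are no further finding. Egln2 itself was at a log2 fold change of -0.04, so its lower share follows from the higher Egln1 and Egln3. Egln1 held 39.0%, 40.5% and 39.2% of the summed per-kb level of the 3 Egln genes in the wild-type libraries, in order of their numbers. In the labelled libraries it held 57.8%, 71.0% and 67.8%. Egln2, the leading paralogue in each wild-type library at 41.9% to 47.7%, held 14.3% to 27.5% in the labelled libraries. The share of Egln3 was 14.8 ± 2.51% in wild type and 14.6 ± 0.250% in the labelled libraries (SD, n = 3), with overlapping values. The family sum was 62.3, 40.4 and 59.2 CPM per kb in wild type and 100.2, 163 and 123 CPM per kb in the labelled libraries, and the groups did not overlap.

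Enzyme and substrate transcripts were also set against each other within each library. The ratio of Egln1 to Hif1a per kb was 0.570, 0.205 and 0.566 for wild type and 1.97, 1.98 and 2.53 in the labelled libraries. Egln1 was thus below Hif1a in each wild-type library and above it in each labelled library. This ratio also carries the Egln1 difference that was known when the set was chosen. Of the summed Arnt and Arnt2 level per kb, Arnt2 held 45.0%, 46.8% and 43.8% in wild type and 20.1%, 26.6% and 20.6% in the labelled libraries. The sum itself was 34.6 ± 3.68 and 23.4 ± 8.44 CPM per kb (SD, n = 3), with overlapping values.

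**Figure D3:**
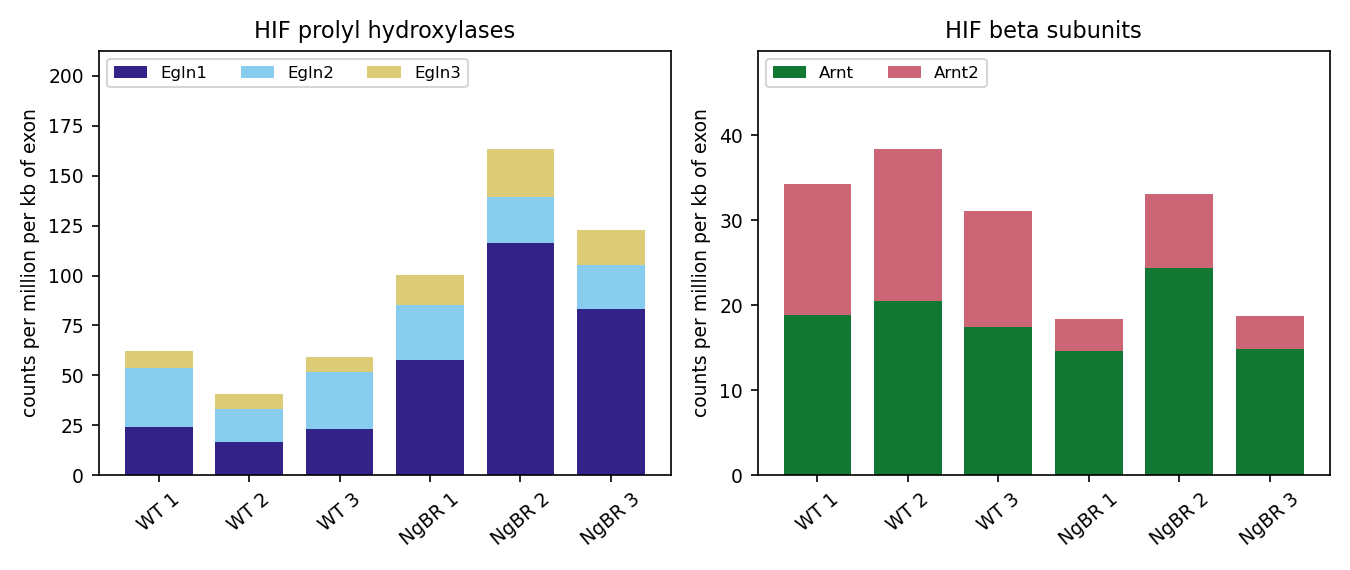
Stacked levels in CPM per kb of exon for the 3 Egln genes (left) and for Arnt and Arnt2 (right) in each library, WT for wild type and NgBR for the labelled libraries. Egln1 takes 57.8% to 71.0% of the hydroxylase bars in the labelled libraries against 39.0% to 40.5% in wild type, and the Arnt2 segment is smaller in each labelled library.

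Across the 6 libraries, log2(CPM + 1) of Egln1 had a Pearson r of 0.994 with Egln3, 0.91 with Vhl, -0.751 with Arnt2 and -0.365 with Hif1a. These 6 points share the group and depth difference. After removal of the group means the values were 0.943 for Egln3, 0.451 for Vhl, 0.595 for Arnt2 and 0.184 for Hif1a. Among 9645 other genes with a mean of at least 5 CPM, those with the highest r to Egln1 were Fam57a (0.998), Gbe1 (0.998), Plod1 (0.997), Nadk2 (0.997) and Mgarp (0.997). Gbe1 encodes the glycogen branching enzyme and Plod1 a lysyl hydroxylase of collagen. All 5 were called higher by edgeR, with log2 fold changes from 1.05 for Fam57a to 2.53 for Mgarp. The genes most like Hif1a were Tbc1d24 (0.999), Btg1 (0.998), Nuak2 (0.996), Ppfia1 (0.994) and AW549877 (0.993), of which 0 were called, with log2 fold changes from -0.37 for AW549877 to -0.10 for Tbc1d24. Likeness over 6 points is a description, and 46 genes had the same rank order of libraries as Egln1. Because the genes were picked on these same libraries, their calls follow from the group difference of Egln1 or Hif1a. After removal of the group means, r was at least 0.967 for the 5 genes picked for Egln1. It was at least 0.994 for the 5 picked for Hif1a. These genes were picked for a high r over the same libraries, so these values are no separate check.

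The other genes of the pathway were followed in 7 lists. VHL works in a complex with the elongins B and C, a cullin and a RING protein. Of these 4 genes 0 were called, with log2 fold changes of -0.32 for Tceb1, -0.25 for Tceb2, -0.21 for Cul2 and 0.15 for Rbx1. Of 5 tested genes for turnover and relatives of the hydroxylases 0 were called. The SIAH ubiquitin ligases, which degrade EGLN proteins, had log2 fold changes of -0.10 for Siah1a, 0.40 for Siah1b and 0.11 for Siah2. The 2 most abundant of this list, Os9 and Fkbp8, were at -0.46 and -0.14. Os9 was at 170 to 186 CPM in wild type and at 113 to 143 CPM in the labelled libraries, without overlap. Such a separation, labelled lower, was seen for 9.37% of tested genes.

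The coactivator genes Ep300 and Crebbp had log2 fold changes of -0.05 and 0.21. Cited2, which competes with HIF for them, and Ncoa1 were at -0.26 and -0.31, and 0 of the 4 tested were called. The chaperone genes Hsp90ab1 and Hsp90aa1, the Rack1 gene Gnb2l1 and 3 enzymes that remove ubiquitin or SUMO made 6 genes with 0 called, all between -0.16 and 0.11. Among the other bHLH-PAS genes, the receptor gene Ahr and the clock genes Arntl and Clock were tested, at 0.28, 0.02 and 0.00, with 0 called. Hif3a, the remaining alpha subunit, was at 0.0191 CPM in wild type and at 0 counts in the labelled libraries.

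Hydroxylases use 2-oxoglutarate and are inhibited by succinate and fumarate, so 10 genes of these metabolites were listed. Of these 0 were called, with log2 fold changes from -0.64 for Idh1 to 0.31 for Ogdh. Sdha, a succinate dehydrogenase subunit, was at -0.07 and Fh1, the fumarase gene, at 0.06. Without both libraries numbered 2, Idh1 was called lower, at -0.97 (edgeR adjusted p = 0.0304). Over the 6 lists together, 32 of 38 genes were tested, 0 were called by edgeR, DESeq2 or limma-voom, and 0 had an unadjusted edgeR p under 0.05. Of all 12651 genes tested, edgeR called 3.39% and DESeq2 5.68%, and 1444 had an unadjusted edgeR p under 0.05. For a list of 32, 0 calls lie near the called shares and do not show that these genes were unchanged. That reading covers the calls only. At an unadjusted edgeR p under 0.05, 0 of 32 lie below the share of 1444 in 12651, a gap that was not tested. The group ranges were separate for 4 of the 38, all lower in the labelled libraries: Os9 and the untested P4htm, Ahrr and Npas2. The median log2 fold change of the 32 genes was -0.06, beside -0.01 for all tested genes.

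Of the 20 HIF target genes, all tested, 5 rose and 0 fell by edgeR, 12 were called by DESeq2, 18 had positive fold changes, and the median log2 fold change was 1.19. Over all tested genes edgeR called 2.04% higher and 1.35% lower, and DESeq2 called 5.68%. Positive fold changes were seen in 6163 of the 12651, with a median of -0.01. The list was set up with earlier results of these libraries known and is no independent evidence of its direction. Angptl4, a known HIF target that the list does not hold, fell from 43.9 to 15.5 CPM (log2 fold change -1.49, adjusted p = 0.0121 by edgeR), and was named after its value was seen. Bhlhe40, a transcriptional repressor of the clock, was at 18.5 ± 3.96 CPM in wild type and rose to 89.2 ± 30.7 CPM (SD, n = 3), by 2.27 on the log2 scale with an SE of 0.31 (adjusted p = 0.00402 by edgeR). Mxi1, whose product competes with MYC for MAX, went from 38.9 ± 1.73 CPM up to 115 ± 35.1 CPM, by 1.56 with an SE of 0.26 (adjusted p = 0.0108 by edgeR).

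Ndrg1, Bnip3, a mitophagy receptor, and P4ha2, a collagen prolyl hydroxylase, rose with log2 fold changes of 2.0, 1.87 and 1.44. The call of Ndrg1 was lost when wild-type library 1 or 3, or one of the labelled libraries, was left out (adjusted p by edgeR 0.0886, 0.0703, 0.0505, 0.078 and 0.0772). The call of Bnip3 was lost with the omission of wild-type library 1, 2 or 3 or of labelled library 2 or 3 (adjusted p by edgeR 0.0885, 0.0926, 0.0671, 0.0525 and 0.0757), and with that of both libraries numbered 2 (0.0592). That of P4ha2 was lost with the omission of wild-type library 1, 2 or 3 (adjusted p by edgeR 0.0683, 0.0506 and 0.0541). Vegfa and Slc2a1, named for their standing as classical targets after their values were seen, were at 0.50 and 1.19 on the log2 scale. Neither was called in the main edgeR fit of all 6 libraries. DESeq2 called Slc2a1 higher (adjusted p = 0.00276), and its ranges did not overlap between the groups. edgeR called Slc2a1 without the low-count filter (adjusted p = 0.0364) and with the replicate number as a block (adjusted p = 0.0116). No other alternative setting called Slc2a1. Summed over the 20 genes, wild-type libraries had 1493, 2108 and 1571 CPM and labelled libraries had 2784, 5780 and 4147 CPM. Among the labelled libraries this is the order of Egln1 and of Egln3, lowest in library 1 and highest in library 2. Hif1a, Arnt, Arnt2 and Vhl had that order there too, so it is not particular to Egln1 and Egln3. Among the wild-type libraries the order of Egln1 and Egln3 was the reverse of that of the target sum. Library 2 had the highest target sum and the lowest Egln1 and Egln3.

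**Figure D4:**
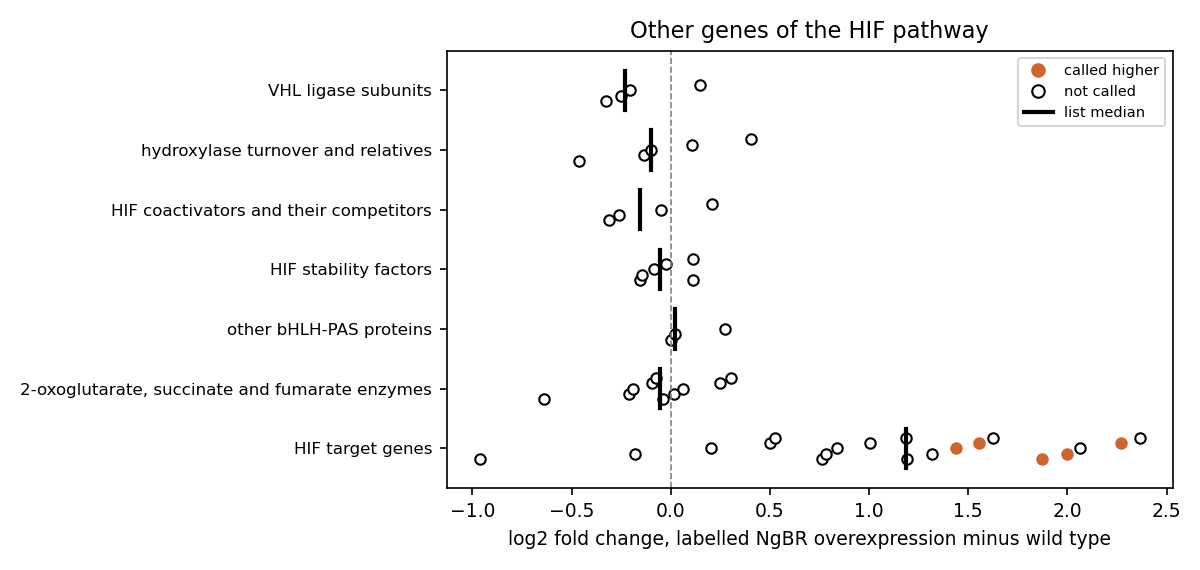
Log2 fold changes of the tested genes of 7 HIF pathway lists, labelled NgBR overexpression minus wild type, with vertical bars at the list medians and filled symbols for genes called higher by edgeR. The 6 lists of partners and cofactors lie between -0.64 and 0.40 with 0 called, and the targets have a median of 1.19 with 5 called. Over all tested genes edgeR called 3.39%.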

How the data were processed

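RNA-seq counts of 6 libraries were analysed. The deposited values are raw counts per gene, whole numbers without normalization. HISAT2 2.0.5, featureCounts 1.5.0-p3 and DESeq2 are named with mm10, per the submitters' processing notes; an annotation release, strand setting or filter is not stated there, so overlapping and antisense genes cannot be told apart.

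Genes were kept by filterByExpr and tested with edgeR 4.0.16 (quasi-likelihood F test, TMM factors, group only) in R 4.3.3, with calls where the Benjamini-Hochberg value was under 0.05. SEs and intervals are from that fit. DESeq2 1.42.0, limma-voom (limma 3.58.1), other factors and filters, thinning to the shallowest depth, a replicate block and omission of libraries were alternatives. The scripts were tested on simulated data. Exonic lengths and positions came from GENCODE M21 (GRCm38, the assembly of mm10), which held 97.8% of the identifiers. Longest transcripts of the members were searched against all transcripts with BLAST 2.17.0 (at least 90% identity over 100 bases), which found no other gene than overlapping ones. The members and lists were chosen with earlier results of these data known. Named genes were all members, for each list up to 6 called genes that averaged 1 CPM or more, otherwise the 2 most abundant, and the 5 genes most like Egln1 and Hif1a. Genes outside this rule were chosen after their values were seen.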

Additional observations from a re-analysis of the deposited data

How the results depend on the processing

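Calls depended on the fit more than fold changes did. Over all genes 429 were called, against 719 with DESeq2, 688 without a filter, 719 with the replicate number as a block, and 225 to 374 with single libraries left out. The 2 members called became 4 with DESeq2, without a filter, with the replicate block and without both libraries numbered 2, and 1 to 3 with single libraries left out. The added members were Vhl and Arnt2 (adjusted p = 0.0683 and 0.0519 in the main edgeR fit of all libraries). Over the 15 alternatives, DESeq2 and limma-voom among them, the adjusted p of Vhl ran from 0.00838 (DESeq2) to 0.286 (edgeR). That of Arnt2 ran from 0.000847 to 0.218, both by edgeR. The 5 HIF targets became 12 with DESeq2 and with the block, 11 without a filter and 2 to 4 with single libraries left out, and the metabolite list went from 0 to 1 without both libraries numbered 2.

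Deviations from the group means correlated at 0.035, 0.377 and 0.492 between the 2 libraries numbered 1, 2 and 3. Each labelled library correlated best with the wild-type library of its own number. For labelled library 1 all values were near 0 (0.035, -0.024 and 0.009), and wild-type library 1 correlated best with labelled library 3 (0.223). Whether the numbers mark pairs was not tested, and the main fit does not use them. Signs turned for members near 0: Egln2 ranged from -0.25 to 0.12, Arnt from -0.36 to 0.045 and Hif1an from -0.24 to 0.092 with single libraries left out, and Hif1an was at 0.046 without both libraries numbered 2. Spearman rho ranks no top 5 of likeness, since 46 genes tied at 1 with Egln1 and 49 with Hif1a, among them 4 and 3 of the 5 genes named. The shallower labelled libraries limit Epas1.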
